A study of Mus musculus with 8 samples.

Results

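Malat1 and 7 other noncoding RNAs were followed in primary mouse microglia, the resident macrophages of the brain, after OGD (oxygen-glucose deprivation, used in culture to model ischaemia) and after transfection with a plasmid meant to activate Parp14. The 8 RNAs are Malat1, Neat1, Gas5, Snhg1, Snhg5, Snhg8, Snhg12 and Rn7sk, out of 54419 gene models in the deposited table. They were chosen by their FPKM in these same libraries, above all the levels of Malat1 in OGD and of Rn7sk in one library, so those values are given as a description and without a test. All 8 were found by name, and all 8 reached the minimum for testing, which was at least 1 FPKM (fragments per kilobase of gene model, scaled to the fragments mapped) in at least 2 of 8 libraries.

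The cells came from the brains of postnatal day 2 C57BL/6 mice. In OGD_PARP14 they carried the PARP14 CRISPR activation plasmid (ACT-PARP14) for 24 h and were then deprived of oxygen and glucose for 6 h; in OGD_Con they carried the control plasmid ACT-Con and had the same OGD; PARP14 had ACT-PARP14 and Con had ACT-Con, both without OGD in their titles. Each of the 4 groups has 2 libraries of polyadenylated RNA. The treatment text names OGD for every sample, so the groups follow the titles. The labels do not tie the paired libraries of any group to different cultures or mice, and a p-value here reflects library-to-library spread that could be technical.

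Long noncoding RNAs act as RNA. Malat1 and Neat1 are neighbours on mouse chromosome 19 and both stay in the nucleus, Malat1 in nuclear speckles, which store splicing factors, and Neat1 as the scaffold of paraspeckles, bodies that assemble in stressed cells. Gas5 and the Snhg genes are hosts of small nucleolar RNAs (snoRNAs), the guides of ribosomal RNA modification, which are cut from their introns, while many of the spliced host transcripts are destroyed by nonsense-mediated decay, the pathway that removes RNAs with early stop codons. Several of these hosts start with a run of pyrimidines, the 5′ TOP signature they share with ribosomal protein genes. Rn7sk is made by RNA polymerase III, has no poly(A) tail and holds the elongation factor P-TEFb in an inactive complex.

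The start regions of the members listed in the RefSeq promoter table (GRCm38.p6) are shown because many snoRNA hosts are known for a pyrimidine run there. Each line below runs 5′ to 3′ over 60 bases around the start listed in that table. Only for Malat1 is this also the start of the gene model whose FPKM are described below. Capitals mark the longest run of C and T with at least 1 base in a window from 5 bases before the listed start to base 6. Runs wholly outside this window, such as the one after the capitals in Snhg5, are not counted.
Snhg1, chr19:8723457-8723516, plus strand: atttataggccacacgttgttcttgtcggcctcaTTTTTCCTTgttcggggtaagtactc
Snhg12, chr4:132308648-132308707, plus strand: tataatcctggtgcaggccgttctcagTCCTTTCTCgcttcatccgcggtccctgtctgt
Snhg8, chr3:123508307-123508366, minus strand: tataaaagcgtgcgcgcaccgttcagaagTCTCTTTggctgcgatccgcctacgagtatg
Gas5, chr1:161035136-161035195, plus strand: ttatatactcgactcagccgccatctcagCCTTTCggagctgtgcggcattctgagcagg
Snhg5, chr9:88522868-88522927, minus strand: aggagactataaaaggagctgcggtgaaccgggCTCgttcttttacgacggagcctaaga
Malat1, chr19:5802643-5802702, minus strand: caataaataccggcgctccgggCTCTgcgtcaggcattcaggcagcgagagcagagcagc
The runs of 9 bases in Snhg1 and Snhg12 are matched or exceeded in 6.89% of all 32851 promoters of the table, the run of 7 in Snhg8 in 14.1%, the run of 6 in Gas5 in 21%, the run of 4 in Malat1 in 48.7% and the run of 3 in Snhg5 in 67.8%. The Gas5 line is the second of 2 starts in the table, and the first has a run of 3. Neat1 and Rn7sk were not matched there.

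A second set of sequences bears on how these RNAs enter a library selected with oligo-dT. Malat1 is cut at its 3′ end without a tail of its own, but its transcript carries an encoded stretch of adenines, here in capitals, at chr19:5795988-5795999 and 298 bases before the 3′ end of the GENCODE M21 transcript. In Rn7sk (chr9:78175303-78175633, minus strand, 331 bases) the longest run of adenines has 3 bases.
Malat1: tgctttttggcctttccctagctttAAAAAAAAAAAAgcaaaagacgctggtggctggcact
Rn7sk: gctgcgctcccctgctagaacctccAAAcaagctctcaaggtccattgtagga

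One library, OGD_PARP14 replicate 2, was unlike the rest. Its correlation with each of the other 7 over the 11146 models tested was 0.880 to 0.903, against at least 0.945 for every other pair. The summed FPKM of 8 hypoxia genes fixed as a check of OGD (Egln3, Slc2a1, Vegfa, Bnip3, Pdk1, Ak4, Ankrd37 and Mxi1) was 31.0 in that library, against 251.7 to 274.0 in the other 3 OGD libraries and 29.7 to 31.8 in the 4 libraries without OGD. Single genes did not all follow this sum. Mxi1 held 5.94 FPKM in that library, against 8.27 to 8.99 in the other 3 OGD libraries and 1.55 to 2.57 without OGD. Egln3, Pdk1 and Ankrd37 were there slightly above the libraries without OGD, and Slc2a1, Bnip3 and Ak4 below all other 7 libraries. Parp14, in the model listed as Gm49730, held 55.8 and 54.6 FPKM in OGD_PARP14, 12.5 and 53.7 in OGD_Con, 12.2 and 11.5 in PARP14, and 61.4 and 50.7 in Con. Both libraries labelled PARP14 were below both of Con, so every direction between plasmids rests on the labels. The 10 microglial markers summed to 2332 FPKM in OGD_PARP14 replicate 2 and 2910 to 4044 elsewhere, with Trem2 listed at 0 throughout, while astrocyte, neuron, endothelial and fibroblast or mural markers summed to 7.34 FPKM or less everywhere, and those of the oligodendrocyte lineage and of leukocytes to 18.9 to 29.1 and 34.8 to 45.9. Depth was estimated, from the steps between the lowest FPKM, as 13.4 to 17.0 M fragments per library. Tests were therefore run with all 8 libraries and with the 7 that remain without OGD_PARP14 replicate 2. In the fit of 7, OGD_PARP14 is 1 library, assumed to vary like the other groups. The fold changes of OGD_Con against Con are the same in both fits and only their SE and p differ.

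The Malat1 model (chr19:5795690-5802672, minus strand, joined with Gm27694) held 4.55 and 96.4 FPKM in OGD_PARP14, 7.94 and 7.94 in OGD_Con, 49.5 and 58.0 in PARP14, and 70.8 and 53.2 in Con. Thus 3 of the 4 OGD libraries were below every library without OGD, and the fourth, OGD_PARP14 replicate 2, was above all others. The mean of the 3 low OGD libraries was 8.50-fold below that of the 4 libraries without OGD. In the same bulk RNA, fewer cells of a type and less RNA per cell cannot be told apart.

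**Figure D1:**
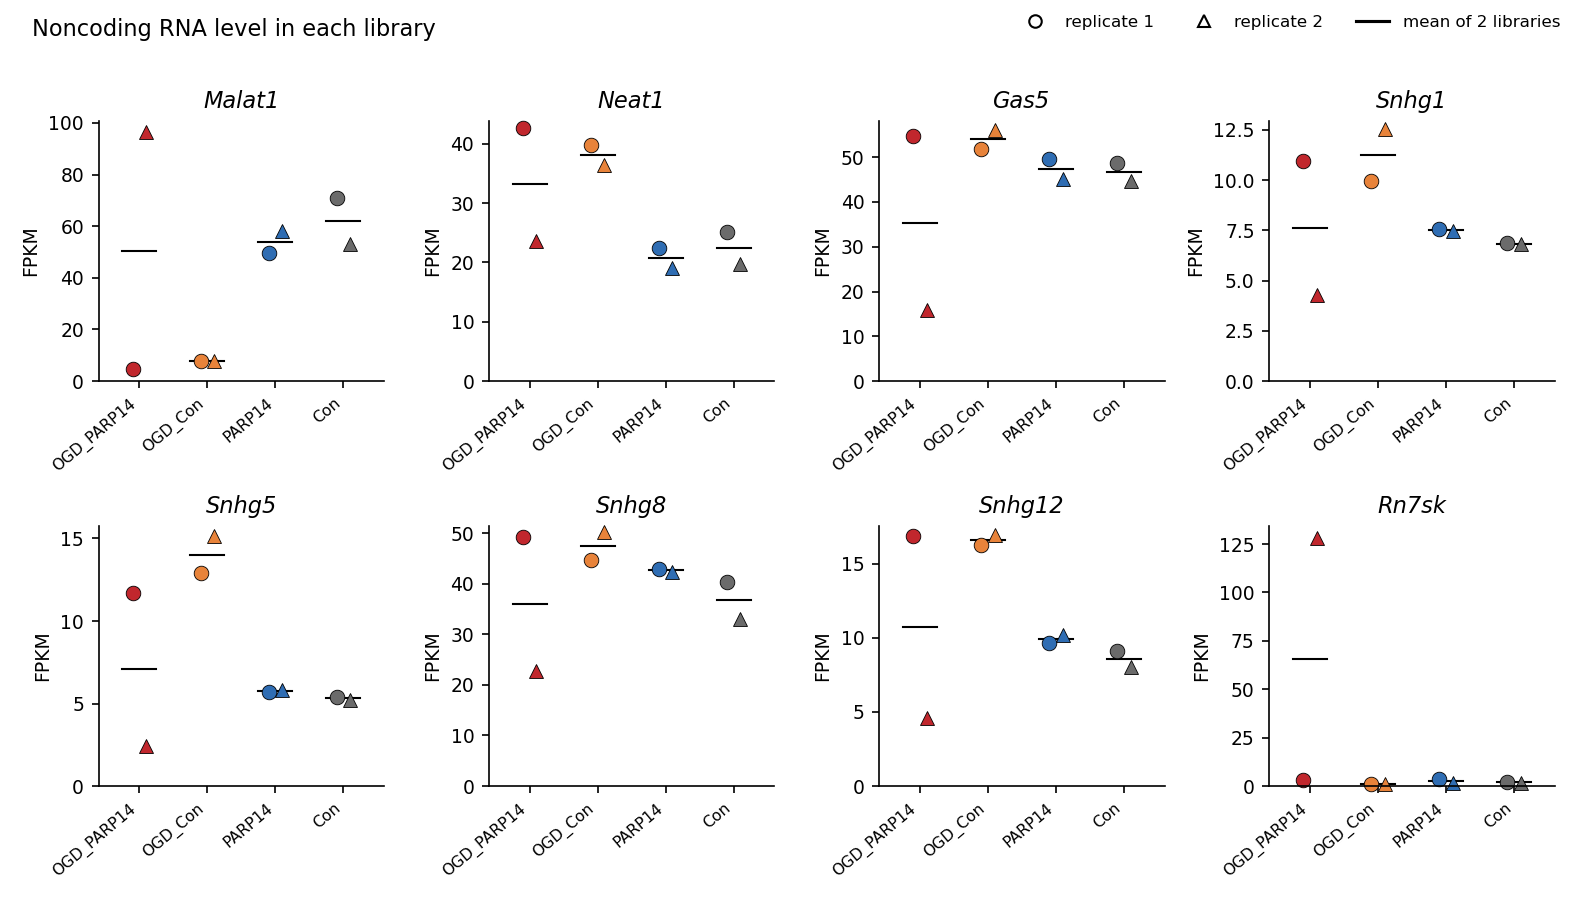
FPKM of the 8 RNAs in each library, with groups on the x axis; circles are replicate 1, triangles replicate 2 and bars the mean of 2 libraries. Malat1 lies at 4.55 to 7.94 FPKM in 3 OGD libraries and at 96.4 in OGD_PARP14 replicate 2, where Rn7sk also peaks at 128.2 and the snoRNA hosts are lowest.

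OGD_Con averaged 7.94 ± 0.00261 FPKM of Malat1 and Con 62.0 ± 12.5 (SD, n = 2 each). The difference of log2(FPKM + 1), a scale on which low genes change by less than their true fold, was -2.80. The limma standard error (SE) was 1.21 with all 8 libraries and 0.16 with 7. OGD_PARP14 against PARP14 gave -1.23 with all 8 libraries and -3.30 (SE 0.19) when OGD_PARP14 was represented by replicate 1 alone. Malat1 was chosen for this pattern, so no p is given. In both comparisons with 7 libraries, only 2 of the 11146 models had a lower fold change.

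Neat1 lay on the opposite side. Its model (chr19:5824708-5845478, minus strand, 20771 bases) held 42.7 and 23.6 FPKM in OGD_PARP14, 39.8 and 36.5 in OGD_Con, 22.5 and 19.1 in PARP14, and 25.0 and 19.8 in Con. The same 3 OGD libraries were above all 4 libraries without OGD, while OGD_PARP14 replicate 2 lay within the range without OGD. The difference of OGD_Con from Con was 0.75 (SE 0.14, limma adjusted p = 0.0234 with 7 libraries, 0.234 with all 8). OGD_PARP14 against PARP14 gave 1.01 (SE 0.18, limma adjusted p = 0.0321) with 7 libraries and 0.60 with all 8, which did not pass.

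Within a library, the ratio of Malat1 to Neat1 does not depend on how that library was scaled. It was 0.107 and 4.08 in OGD_PARP14, 0.200 and 0.218 in OGD_Con, 2.20 and 3.05 in PARP14, and 2.83 and 2.69 in Con. Malat1 thus had the lower FPKM in 3 OGD libraries and the higher one in the other 5. In libraries selected for poly(A) these FPKM need not rank how abundant the RNAs were in the cells. The Neat1 model also joins transcripts of different length, among them 20771 and 3004 bases, and its value does not tell them apart. A second model under the exact name Neat1, 552 bases on the opposite strand at chr19:5843815-5844366, held 0 in all 4 OGD libraries, 3.91 and 1.48 FPKM in PARP14, and 4.0 and 0 in Con. The long model on the strand of the gene is the one described, although an exact name would take the short one first.

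**Figure D2:**
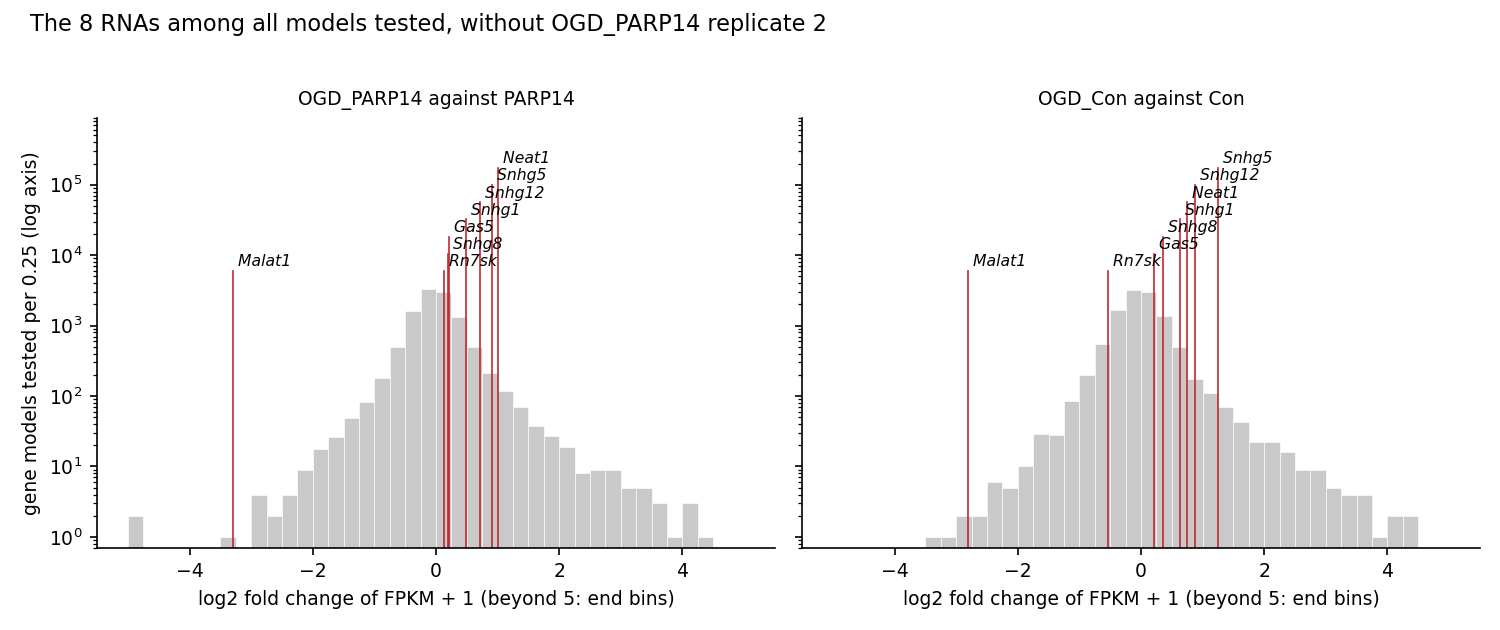
Number of gene models (log axis) per 0.25 of log2 fold change of FPKM + 1, without OGD_PARP14 replicate 2, for OGD_PARP14 against PARP14 (left) and OGD_Con against Con (right); red lines mark the 8 RNAs. Malat1, at -3.30 and -2.80, is near the low end of both distributions, and Neat1, Snhg5 and Snhg12 are on the high side of both.

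Among the snoRNA hosts, Snhg5 had the largest difference between OGD_Con and Con and Gas5 the smallest. Snhg5 (chr9:88521050-88522929, minus strand, with 2 annotated snoRNA genes inside) held 11.7 and 2.42 FPKM in OGD_PARP14, 12.9 and 15.2 in OGD_Con, 5.72 and 5.80 in PARP14, and 5.42 and 5.23 in Con. Except for OGD_PARP14 replicate 2, the lowest of all, every OGD library was above every library without OGD. The difference of OGD_Con from Con was 1.24 (SE 0.094 with 7 libraries, limma adjusted p = 0.00263; 0.298 with all 8). OGD_PARP14 against PARP14 gave 0.91 (SE 0.11, limma adjusted p = 0.0151) with 7 libraries and -0.04 with all 8.

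Snhg12 (chr4:132308623-132311024, plus strand, with 5 snoRNA genes) held 16.9 and 4.61 FPKM in OGD_PARP14, 16.3 and 17.0 in OGD_Con, 9.67 and 10.2 in PARP14, and 9.09 and 8.04 in Con. The 3 similar OGD libraries lay between 16.3 and 17.0 FPKM, again above all libraries without OGD. OGD_Con differed from Con by 0.88 (limma adjusted p = 0.00467 with 7 libraries, 0.391 with all 8), and OGD_PARP14 from PARP14 by 0.71 (limma adjusted p = 0.0211 with 7 libraries; -0.13 with all 8).

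Snhg1 (chr19:8723475-8726443, plus strand, with 8 snoRNA genes) held 10.9 and 4.29 FPKM in OGD_PARP14, 9.95 and 12.6 in OGD_Con, 7.58 and 7.46 in PARP14, and 6.86 and 6.84 in Con. It passed in OGD_Con against Con (0.63, limma adjusted p = 0.0202 with 7 libraries, 0.400 with all 8) and missed in OGD_PARP14 against PARP14 (0.49, limma adjusted p = 0.0916 with 7 libraries; -0.10 with all 8). Snhg8 and Gas5 showed smaller differences that did not pass. Snhg8 (chr3:123507552-123508404, minus strand, with 1 snoRNA gene) held 49.1 and 22.8 FPKM in OGD_PARP14, 44.7 and 50.1 in OGD_Con, 42.9 and 42.3 in PARP14, and 40.4 and 33.1 in Con, a difference of 0.36 between OGD_Con and Con (limma adjusted p = 0.0842 with 7 libraries, 0.613 with all 8). Gas5 (chr1:161034422-161038539, plus strand, with 10 snoRNA genes), named for its rise in growth-arrested cells, held 54.8 and 15.9 FPKM in OGD_PARP14, 51.8 and 56.2 in OGD_Con, 49.6 and 45.1 in PARP14, and 48.6 and 44.6 in Con, a difference of 0.21 (limma adjusted p = 0.164 with 7 libraries, 0.871 with all 8). OGD_PARP14 against PARP14 gave 0.20 with 7 libraries and -0.34 with all 8 for Snhg8, and 0.21 with 7 and -0.65 with all 8 for Gas5. All 3 of the similar OGD libraries were above all 4 without OGD for both genes.

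Malat1 is left out of the counts that follow, since its own fold change was among the values that chose it. With 7 libraries, 4 of the other 7 RNAs passed in OGD_Con against Con, with Neat1, Snhg1, Snhg5 and Snhg12 all higher, where 23.1% of all models tested passed, 10.7% higher and 12.4% lower. In OGD_PARP14 against PARP14, 3 of the other 7 passed, with Neat1, Snhg5 and Snhg12 all higher, where 10.7% of models passed, 5.54% higher and 5.17% lower. With all 8 libraries none passed in either comparison, where 0.269% and 0.215% of models did (30 and 24). Of the models tested, 22.1% had all 3 similar OGD libraries above all 4 without OGD and 26.7% had them below; 6 of the other 7 RNAs had them above and none of those 7 below. The members were chosen with these libraries in view, so the counts describe them and are no evidence for the group.

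**Figure D3:**
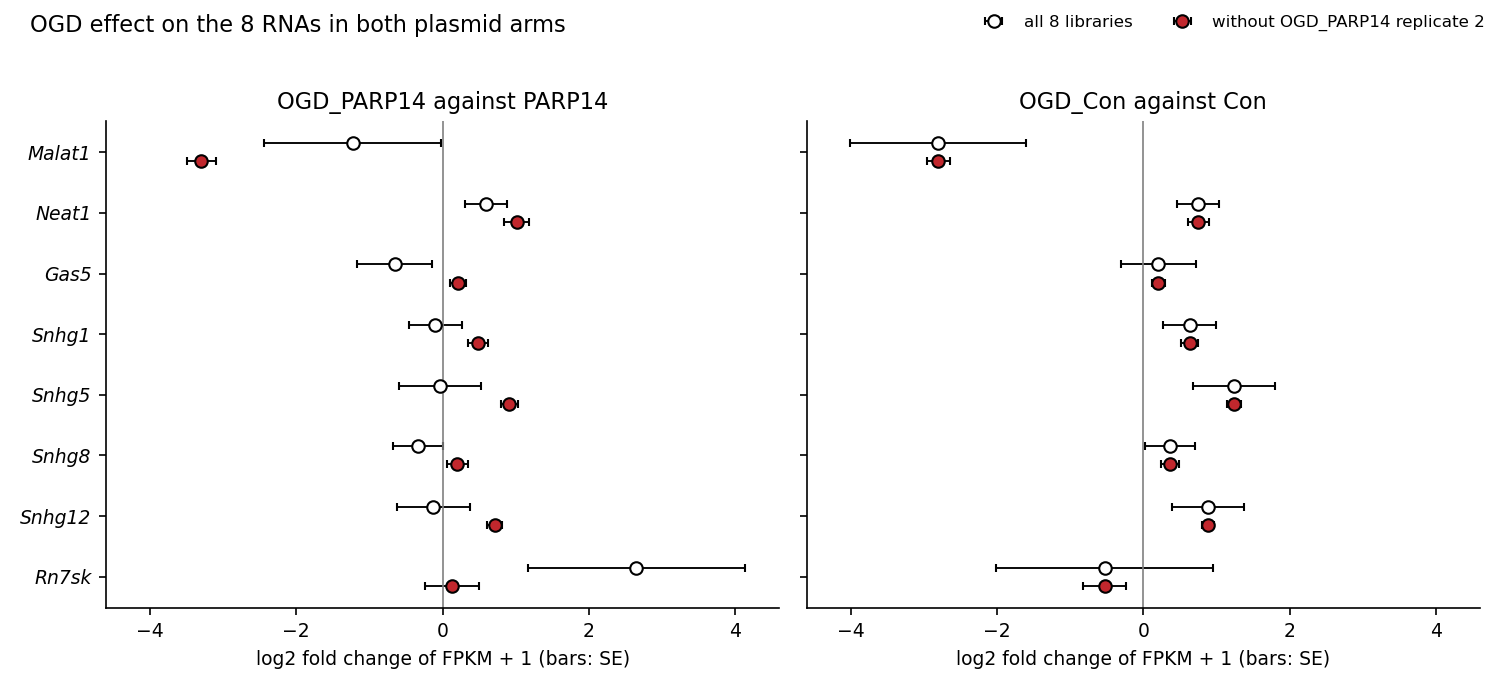
Log2 fold change of FPKM + 1 with its SE for the 8 RNAs, for OGD_PARP14 against PARP14 (left) and OGD_Con against Con (right); open circles are the fit of all 8 libraries, filled circles the fit without OGD_PARP14 replicate 2. On the right the values coincide and only the SE shrinks, while on the left Malat1 goes to -3.30 without that library and -1.23 with it.

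Rn7sk gave very few fragments in 7 libraries and many in one. It held 2.90 and 128.2 FPKM in OGD_PARP14, 1.30 and 0.832 in OGD_Con, 3.73 and 1.71 in PARP14, and 2.37 and 1.60 in Con. At the estimated depth these values stand for about 14.1 and 575 fragments in OGD_PARP14, 6.49 and 4.13 in OGD_Con, 16.5 and 9.64 in PARP14, and 12.3 and 7.49 in Con. OGD_PARP14 replicate 2 was 34.4 times the highest other library. OGD_Con was below Con by 0.53 on the log2(FPKM + 1) scale (limma adjusted p = 0.255 with 7 libraries), which did not pass. OGD_PARP14 against PARP14 gave 0.13 with 7 libraries and 2.65 with all 8.

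OGD_PARP14 replicate 2 departed from the others in all but one of the members. Malat1 and Rn7sk were above the other 7 libraries there, Gas5 and all 4 Snhg members below them, and Neat1 alone was inside their range. Across the models tested, 20.7% were above and 38.5% below the other 7 in that library. Gas5 was at 0.320 of the median of the others, Snhg5 at 0.417, Snhg12 at 0.452, Snhg8 at 0.532 and Snhg1 at 0.566. Rn7sk was 75.0 times that median and Malat1 1.95 times.

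Some other RNAs made by RNA polymerase III or lacking a poly(A) tail were also higher in that library than in the other 7. Rn7s1 and Rn7s2, near-identical genes of the signal recognition particle RNA between which reads could be split, held 155.6 and 148.0 FPKM in OGD_PARP14 replicate 2, against 3.18 to 4.48 and 3.11 to 4.58 in the other 7 libraries. Rmrp, the RNA of a nuclease that processes ribosomal RNA, held 19.7 FPKM, against 0 to 0.683, and Rpph1, the RNA of RNase P, held 3.81 against 0.0339 to 0.198. The 16 genes of this list summed to 328.8 FPKM there, mostly from Rn7s1 and Rn7s2, and to 6.86 to 9.82 elsewhere. Of the 16, 12 stayed under 1 FPKM in all 8 libraries, and 7 were listed at 0 in all 8, Rny1 and Rny3 among them. Terc, at 0.087 FPKM there and up to 0.302 elsewhere, was not raised. The mitochondrial ribosomal RNAs mt-Rnr1 and mt-Rnr2 summed to 872.1 FPKM, against 194.7 to 320.4. In OGD_Con against Con with 7 libraries, mt-Rnr2 fell (-0.68, limma adjusted p = 0.0128), and Rn7s1 (0.04) and Rn7s2 (0.05) did not pass. Their part in the other values of that library was not tested.

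**Figure D4:**
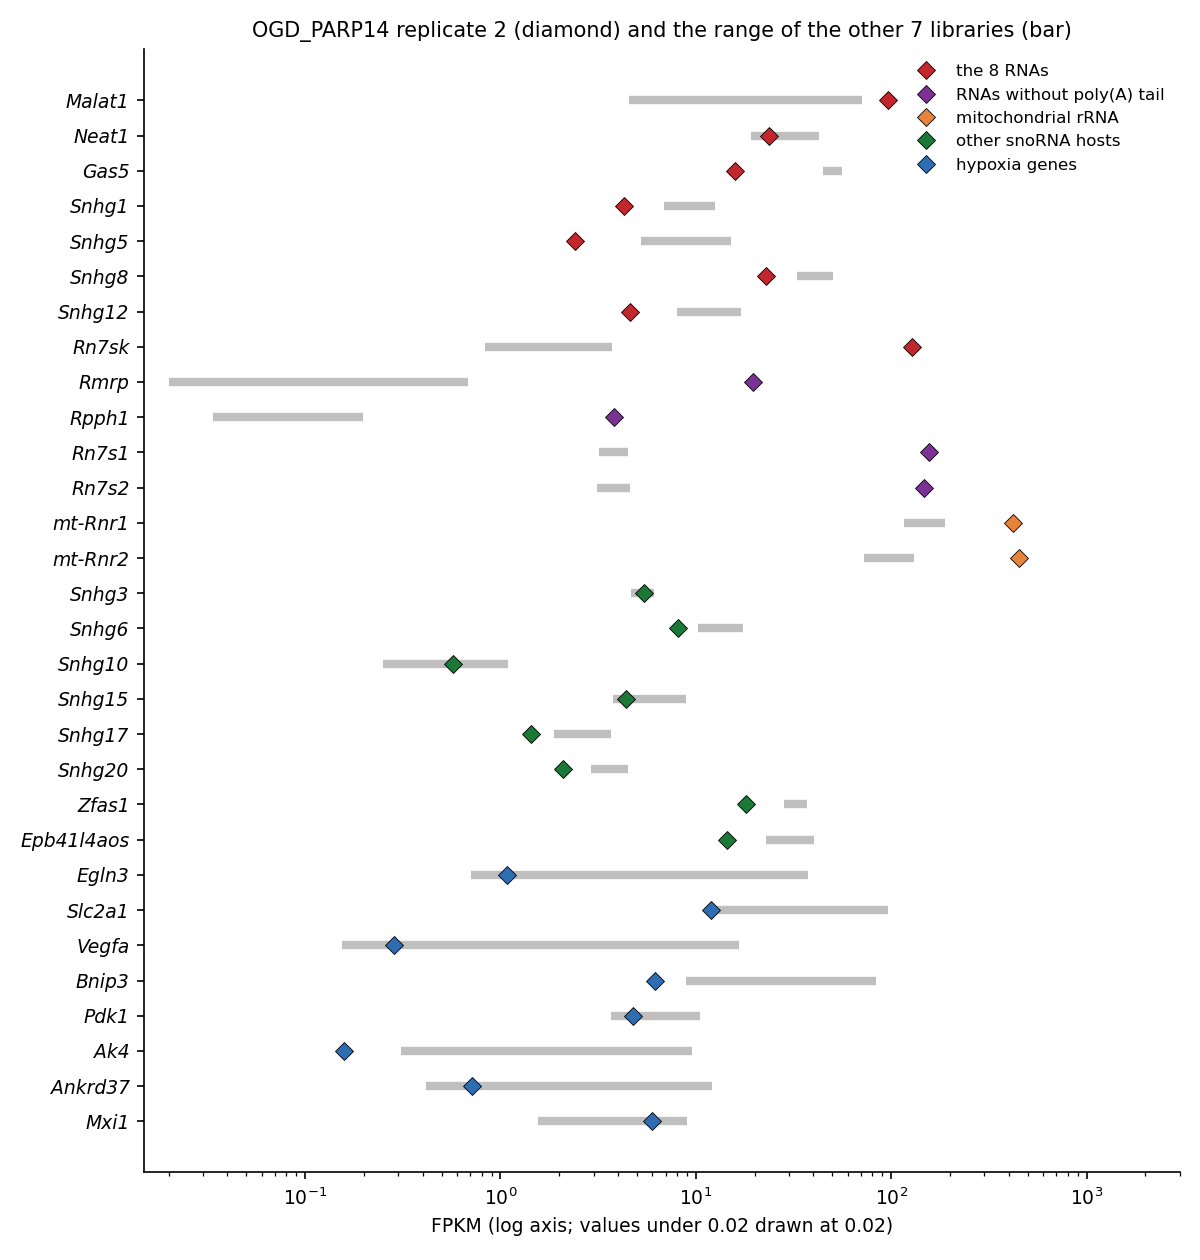
FPKM (log axis) of the 8 RNAs and of 4 gene lists in OGD_PARP14 replicate 2 (diamonds) and the range of the other 7 libraries (grey bars). Rn7sk, Rn7s1, Rn7s2, Rmrp and Rpph1 are far above the grey bars, Gas5 and the Snhg members below them, and 3 of the 8 hypoxia genes below theirs.

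Of 15 other snoRNA host genes listed, 12 were found and 7 tested. Snhg6 held 17.5 and 8.09 FPKM in OGD_PARP14, 16.9 and 16.8 in OGD_Con, 12.4 and 11.1 in PARP14, and 11.0 and 10.3 in Con. It passed in OGD_Con against Con (0.62, limma adjusted p = 0.0102) and in OGD_PARP14 against PARP14 (0.54, limma adjusted p = 0.0386) with 7 libraries, and the second difference was 0.027 with all 8. Snhg15 passed in the first of them (0.87, limma adjusted p = 0.0230) and not in the second (0.50, limma adjusted p = 0.178; 0.11 with all 8). Snhg17, Epb41l4aos, Zfas1 and Snhg20 had positive differences in OGD_Con against Con and Snhg3 a negative one, and none of these passed. In OGD_Con against Con the list had a median of 0.43 with 7 libraries, against -0.02 over all models tested. Of its 7 genes, 2 passed higher and 0 lower, where 10.7% and 12.4% of all models did. Of all 73 tested models that also hold a snoRNA gene, the 60 with a protein-coding type had a median of 0.11 in OGD_Con against Con. The 13 without one had a median of 0.21. These 13 include the 5 snoRNA-host members, chosen from these same data, whose own median was 0.63.

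**Figure D5:**
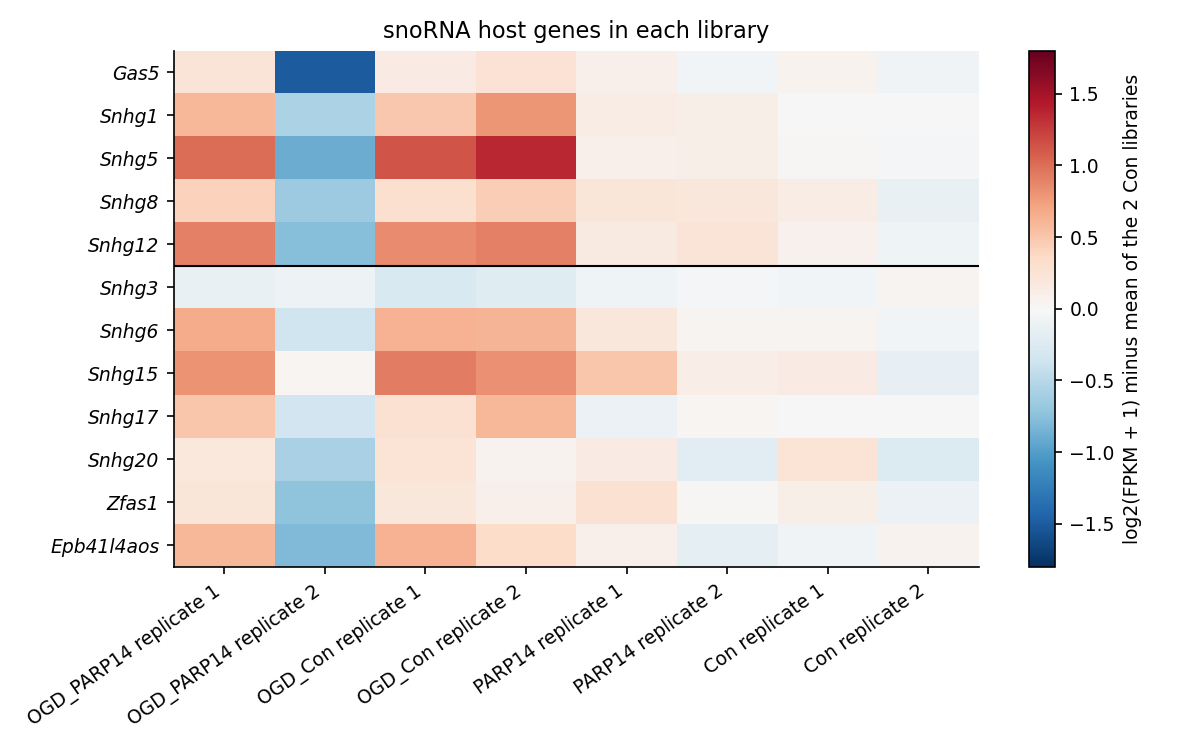
Log2(FPKM + 1) of each snoRNA host gene minus the mean of the 2 Con libraries, for the 5 members (above the line) and 7 other hosts. OGD_PARP14 replicate 1 and both OGD_Con libraries are red for Snhg1, Snhg5, Snhg12, Snhg6 and Snhg15, OGD_PARP14 replicate 2 is blue for every member, and Snhg3 is pale or blue in the OGD libraries.

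Genes of nonsense-mediated decay were lower where they passed. In OGD_Con against Con with 7 libraries, Upf1 (-0.95, limma adjusted p = 0.00466), the helicase of the pathway, Upf2 (-0.49), Upf3b (-0.69), Smg5 (-0.47) and Smg8 (-0.65) fell and the other 5 of 10 did not pass, with a median of -0.28. Upf1 held 9.15 and 13.1 FPKM in OGD_PARP14, 9.04 and 7.73 in OGD_Con, 17.4 and 17.1 in PARP14, and 17.4 and 16.8 in Con. In OGD_PARP14 against PARP14, Upf1 was at -0.85 with 7 libraries and -0.61 with all 8, and Upf2 at -0.52 and -0.37. In OGD_Con against Con with 7 libraries, 5 of the 10 thus passed lower and 0 higher, where 12.4% of all models tested passed lower and 10.7% higher.

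Genes of proteins that share nuclear bodies with Neat1 and Malat1 passed in both directions in OGD_Con against Con with 7 libraries. Of all models tested, 10.7% passed higher there and 12.4% lower. Of 10 paraspeckle genes, 1 passed higher and 3 lower, and of 10 nuclear speckle genes 1 and 2. Among the genes of paraspeckle proteins, Nono (-0.28), Tardbp (-0.55) and Cpsf6 (-0.73) fell in OGD_Con against Con with 7 libraries, and Tardbp (-0.54; -0.36 with all 8) and Cpsf6 (-0.51; -0.55 with all 8) fell with 7 in OGD_PARP14 against PARP14. Nono binds Neat1 as a core paraspeckle protein, and Tardbp and Cpsf6 act in choosing the 3′ end of the short Neat1 isoform. Of 10 nuclear speckle proteins, the splicing factor gene Srsf2 (0.62) rose and Srsf5 (-0.42) and Pnn (-0.71) fell in OGD_Con against Con. In OGD_PARP14 against PARP14, Srsf2 differed by 0.49 with 7 libraries and 0.097 with all 8. The median of the 10 nuclear speckle genes in OGD_Con against Con was -0.36.

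Of 8 tested genes of the 7SK particle and P-TEFb, only Hexim1, the inhibitor that 7SK brings to P-TEFb, passed. It held 15.4 and 19.2 FPKM in OGD_PARP14, 16.8 and 11.2 in OGD_Con, 44.0 and 37.8 in PARP14, and 45.3 and 40.9 in Con. All 4 OGD libraries were below all 4 without OGD, OGD_PARP14 replicate 2 included. The differences with 7 libraries were -1.58 for OGD_Con against Con (SE 0.20, limma adjusted p = 0.00844) and -1.35 for OGD_PARP14 against PARP14 (SE 0.24, limma adjusted p = 0.0334). With all 8 libraries the adjusted p were 0.0633 and 0.113, by limma, with -1.20 for the second. Larp7, which binds the 3′ end of 7SK, and Cdk9, the kinase of P-TEFb, did not pass.

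Among 7 tested other long noncoding RNAs, Xist and Pvt1 rose and Mir22hg and Mir17hg fell in OGD_Con against Con with 7 libraries. There, 10.7% of all models tested passed higher and 12.4% lower. In OGD_PARP14 against PARP14 with 7 libraries the differences of these 7 RNAs ran from -1.02 to 0.61, with 2 of them positive. Mir22hg, a host of a microRNA, held 4.40 and 6.84 FPKM in OGD_PARP14, 4.98 and 4.46 in OGD_Con, 10.4 and 9.46 in PARP14, and 10.0 and 11.1 in Con, and fell in both comparisons (-1.01 and -1.02, limma adjusted p = 0.00434 and 0.0116 with 7 libraries; -0.75 in the second with all 8). Xist, which coats the inactive X chromosome of female cells, held 41.6 and 13.1 FPKM in OGD_PARP14, 40.5 and 40.2 in OGD_Con, 27.3 and 26.7 in PARP14, and 29.8 and 29.2 in Con. The 420 tested models typed as long noncoding had medians of 0.01 in OGD_Con against Con and 0.03 in OGD_PARP14 against PARP14 with 7 libraries. Over all models tested the medians were -0.02 and -0.01. With all 8 libraries, no gene of the lists of other snoRNA hosts, nonsense-mediated decay, paraspeckle, nuclear speckle, 7SK or other long noncoding RNAs passed in either comparison, and the median of the other snoRNA hosts in OGD_PARP14 against PARP14 was -0.055, against 0.50 with 7.

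Between plasmids, none of the 8 RNAs passed. In PARP14 against Con the log2 differences with 7 libraries ran from -0.19 for Malat1 to 0.27 for Rn7sk, and every limma adjusted p was 1, with 0.0538% of models passing (0.00897% with all 8 libraries). In OGD_PARP14 against OGD_Con with 7 libraries they ran from -0.69 (SE 0.19) for Malat1, which held 4.55 FPKM in OGD_PARP14 replicate 1 and 7.94 in both OGD_Con libraries, to 0.93 (SE 0.37) for Rn7sk, with 0.0987% of models passing. With all 8 libraries the values were 1.38 for Malat1 and 3.45 for Rn7sk. With all 8 libraries this comparison had 0 calls over all models by limma (0%) and 387 models with an unadjusted p under 0.05. The interaction of OGD and plasmid label, which tests whether the OGD effect differs between the plasmid arms, gave no call for a member with 7 or 8 libraries, where 0.0807% and 0.00897% of models passed, and its largest 7-library value was 0.65 (SE 0.47) for Rn7sk.

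The genes whose levels followed 4 of the members most closely are given as a description, from 5385 single-name models (5384 for Rn7sk) with a mean of at least 5 FPKM. The 8 libraries share their groups and, in OGD_PARP14 replicate 2, a library that stands apart. For Malat1 the highest Pearson r included those with Abcf2 (0.994), Dck, Extl3 and Sh3bp2, and without that library with Ptpn12 (0.998), Vps54, Cptp, Cpd and Skil. For Neat1 they were with Unk (0.986), Mknk2, Gadd45b, Gtpbp2 and Ifngr2, and without it with Tlr9 (0.996), Arl4c, Sh3bp5, Ptafr and Slc15a4. For Gas5 they were with Birc3 (0.998), the ribosomal protein genes Rps4x and Rps6, Tbc1d2b and Mrps18b, and without it with Mcl1 (0.990), Il21r, Mylip, Tmem140 and Foxk1. For Rn7sk they were with Cybb (0.990), Sema4d, Igf1, Rgs2 and Camk1d, and without it with Synj1 (0.984), Pik3r2, Gas8, Coa6 and Pltp. No gene named here for any of the 4 was named both with and without that library.

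Rps4x, which held 680 and 307.5 FPKM in OGD_PARP14, 672 and 688 in OGD_Con, 629 and 606 in PARP14, and 605 and 596 in Con, shows the shape these r values reflect for Gas5. As for Gas5, OGD_PARP14 replicate 2 was the lowest library and the other 7 lay close together.

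The hypoxia core motif ACGTG was sought on both strands over 250 bases before and 50 after the start listed in the RefSeq promoter table. It was present in Malat1 at position -43, in Snhg1 at -18 and in Snhg5 at -87, and in 19.6% of all promoters of the table. The variant GCGTG was found in Gas5, Snhg1, Snhg5 and Snhg8 and in 32.4% of promoters. TATAAA was found in Snhg1, Snhg5 and Snhg8 and in 13.6%. The motif of Malat1 and those of Snhg1 and Snhg5 thus sit before RNAs that lay on opposite sides in OGD_Con against Con.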

How the data were processed

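The authors deposited 1 table of FPKM per gene model and library. Per the labels' protocols, poly(A) RNA was selected in 2 rounds and stranded paired-end libraries with molecular identifiers were made by the dUTP method; per the submitters' processing notes, HISAT, StringTie and edgeR were used, versions not given in the sources used here. The notes name the build mm9, but the start and end of all 8 members are those of GENCODE M21 on GRCm38. Models that had a name and reached 1 FPKM in 2 or more of the 8 libraries (11146) were fitted as log2(FPKM + 1) with limma 3.58.1 (R 4.3.3) on 4 group means (4 residual degrees of freedom, 3 with 7 libraries), with Benjamini-Hochberg adjustment over all of them and calls under 0.05. The fit of 8 libraries was tested on simulated data in which no library stood apart. The layout of 7 libraries was not simulated. Tables and figures were made in Python 3.11.15 (pandas 2.3.3, matplotlib 3.10.9). The members and lists were chosen with earlier results of these data known. Members were described in full, list genes by call or smallest p, and look-alikes by highest r. Joined models give 1 value for all their genes, which holds for every member but Rn7sk. Depth was estimated, so values of few fragments carry counting error that the FPKM do not show. Alternatives were pseudocount 0.1, no filter, 5 FPKM, quantile normalization, rescaling, a replicate block, a fit of just the 2 groups compared, and omission of 1 library at a time. Some list genes and look-alikes are not reported here.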

Additional observations from a re-analysis of the deposited data

How the results depend on the processing

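Calls hinge on whether the spread between both OGD_PARP14 libraries enters the fit. Leaving out 1 library at a time gave 0 to 2574 models called in OGD_Con against Con (30 with all 8 libraries), with 2574 without either OGD_PARP14 library and 0 without any other. The ranges were 0 to 3497 in OGD_PARP14 against PARP14 (24 with all 8; 3497 without OGD_PARP14 replicate 1 and 1194 without replicate 2), 0 to 4661 in OGD_PARP14 against OGD_Con (4661 without OGD_PARP14 replicate 1 and 11 without replicate 2), 0 to 6 in PARP14 against Con and 0 to 3295 in the interaction. For members called they were 0 to 5, 0 to 7, 0 to 8, 0 to 0 and 0 to 7, with Malat1 included throughout, whose calls are a description only.

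OGD_Con against Con gave 10 models with pseudocount 0.1, 74 with no filter, 0 with the replicate block and 1790 with only the libraries compared, where 5 members passed. OGD_PARP14 against PARP14 gave 1 with the block and 0 with only the libraries compared. OGD_PARP14 against OGD_Con gave 1 with quantile normalization, PARP14 against Con 2 with no filter and 5 with only the libraries compared, and the interaction 0 with pseudocount 0.1, no filter, rescaling or the block, against 1. These 0 counts are limma's, with 2029, 700, 223, 833, 210 and 204 models at an unadjusted p under 0.05, in the order given. The causes were not tested. Libraries of the same number deviated together only weakly (correlations 0.014 to 0.125), so the numbers were not taken as pairs.

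Apart from the 5 just given, no member passed in these settings with all 8 libraries. Signs turned for Snhg5 in OGD_PARP14 against PARP14 with quantile normalization (0.0086) and for Gas5 in PARP14 against Con with rescaling (-0.011). With 1 library left out, OGD_PARP14 against PARP14 ranged from -3.30 to 0.83 for Malat1, -1.52 to 0.21 for Gas5, -0.69 to 0.49 for Snhg1, -0.98 to 0.91 for Snhg5, -0.87 to 0.20 for Snhg8 and -0.96 to 0.71 for Snhg12. OGD_PARP14 against OGD_Con ranged from -0.69 to 3.44 for Malat1, -0.67 to 0.16 for Neat1, -1.70 to 0.022 for Gas5, -1.02 to 0.053 for Snhg8 and -1.65 to 0.023 for Snhg12, and the interaction from -0.49 to 3.64 for Malat1 and -0.57 to 0.26 for Neat1. In these comparisons both ends came from leaving out OGD_PARP14 replicate 1 or replicate 2. PARP14 against Con ranged from -0.40 to 0.010 for Malat1, -0.26 to 0.065 for Neat1, -0.046 to 0.090 for Gas5 and -0.13 to 0.67 for Rn7sk. OGD_Con against Con stayed within -3.01 to -2.60 for Malat1 and 1.13 to 1.35 for Snhg5. Rn7sk rests on an estimated 4.13 to 16.5 fragments in 7 libraries.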
